A study of Mus musculus with 18 samples.

Results

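The genes described here are 35 mouse genes of the endoplasmic reticulum (ER): its chaperones, the sensors and targets of the unfolded protein response, and the factors of ER-associated degradation (ERAD). They were taken by name, with earlier results of these data known, and all 35 symbols are among the 23453 of the count table. They were followed after knockdown of Hgs, which encodes Hrs, an endosomal protein that sorts ubiquitinated membrane proteins towards lysosomes. The title of the series links Hrs to proteostasis and to the way tumours escape immunity. RNA was sequenced from 8 cultures and 10 tumours of B16F10, a melanoma line of the C57BL/6 mouse. All of these cells carried a lentiviral shRNA in a pLKO.1 vector, either against Hgs (shHrs) or scrambled (shCTL), and were selected with puromycin or blasticidin for 5 days. The shHrs and shCTL cultures came in 2 batches with 2 libraries of each kind per batch, while 5 shHrs and 5 shCTL tumours had grown in wild-type, immunocompetent C57BL/6 mice, females aged 6 to 8 weeks. A tumour piece also holds host cells, and in such bulk RNA fewer cells of a type and less RNA per cell cannot be told apart. The labels speak of biological repeats but not of whether the 2 cultures of a group were raised separately, so a p-value for cultures reflects the spread among these libraries only, and that spread may be technical.

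Secreted and membrane proteins enter the ER through the translocon and fold there with the help of chaperones, disulfide isomerases and a cycle of sugar-binding lectins. The membrane sensors ATF6, IRE1 (Ern1) and PERK (Eif2ak3) respond when unfolded protein accumulates. Cleaved ATF6 and the XBP1 protein made after IRE1 splices Xbp1 mRNA raise transcription of chaperones and ERAD factors, whereas PERK slows translation and raises ATF4. ERAD draws misfolded proteins back through the membrane to be ubiquitinated and degraded. Expression was measured as reads per gene, which shows the level of Xbp1 mRNA but not whether it was spliced.

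ATF6 and XBP1 are known to act through a bipartite promoter element, the ER stress response element (ERSE), and a compact relative, ERSE-II. Promoters from RefSeq (GRCm38.p6, from 250 bases before to 50 after the start site) were found for 28 of the 35 genes and searched on both strands. ERSE, written as CCAAT, 9 free bases and CCACG, stood in 9 of the 28 (Calr, Canx, Creld2, Derl3, Dnajc3, Hsp90b1, Hspa5, Pdia6 and Syvn1), against 0.137% of the 27025 genes in the table. ERSE-II, written as ATTGG, 1 free base and CCACG, stood in Herpud1 and Dnajb11, against 0.0444% of genes, and TGACGTGG, a core of the XBP1 and ATF6 element UPRE, stood in 0 of the 28, against 0.714% of genes. A match describes the letters only. The promoters of 6 of the genes that the results return to most often are shown, with the element in capitals and 12 bases on either side, 5′ to 3′ on the strand of the gene. In Calr and Creld2 the element lies on the opposite strand, so its capitals read as the reverse complement.
Hspa5, chr2:34772013-34772055, plus strand: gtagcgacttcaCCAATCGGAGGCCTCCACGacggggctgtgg
Pdia6, chr12:17266479-17266521, plus strand: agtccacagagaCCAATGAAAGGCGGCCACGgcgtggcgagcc
Syvn1, chr19:6046520-6046562, plus strand: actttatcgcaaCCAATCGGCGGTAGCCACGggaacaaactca
Calr, chr8:84847063-84847105, minus strand: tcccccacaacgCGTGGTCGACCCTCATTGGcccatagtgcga
Creld2, chr15:88819508-88819550, plus strand: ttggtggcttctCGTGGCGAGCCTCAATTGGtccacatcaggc
Herpud1, chr8:94386365-94386399, plus strand: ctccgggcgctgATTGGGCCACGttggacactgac
The element ended 46 bases before the start site in Hspa5 and 41 bases before it in Herpud1.

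The libraries held between 17.6 M and 27.7 M counts each (M, mega). Hgs stood at 36.3 and 30.3 CPM (read counts scaled to a common library total) in batch 1 shHrs cultures, against 96.3 and 116 CPM in batch 1 shCTL cultures. In batch 2 it stood at 44.2 and 40.1 CPM with shHrs, against 100.1 and 108 CPM with shCTL, and in tumours at 15.9 to 29.6 CPM with shHrs, against 96.0 to 111 CPM with shCTL. In each batch and in tumours, every shHrs library thus lay below every shCTL library. Of the 18 leukocyte and myeloid markers, 9 to 11 had 0 counts in each group of cultures, and their summed level there was 3.76 to 36.7 CPM. Markers of the melanoma line, such as Mitf, Pmel and Tyr, were detected in every group. Their sum was 8130 to 8990 CPM in batch 2 shHrs cultures, against 16700 to 19400 CPM in batch 2 shCTL cultures, and the part of that difference in the values of the ER genes was not tested. Batch 1 shHrs replicate 2 stood apart from the other cultures for the ER genes. It held the highest of the 8 culture values for 18 of the 35, against 19.5% of all genes tested, and 8 of the 35 were over 2-fold higher in it than in batch 1 shHrs replicate 1, against 10.8% of all genes. For the 35 genes in batch 1, the median and the numbers positive and called are therefore also given without it. For other gene lists and for genes split by promoter element, the batch 1 values include it.

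**Figure D1:**
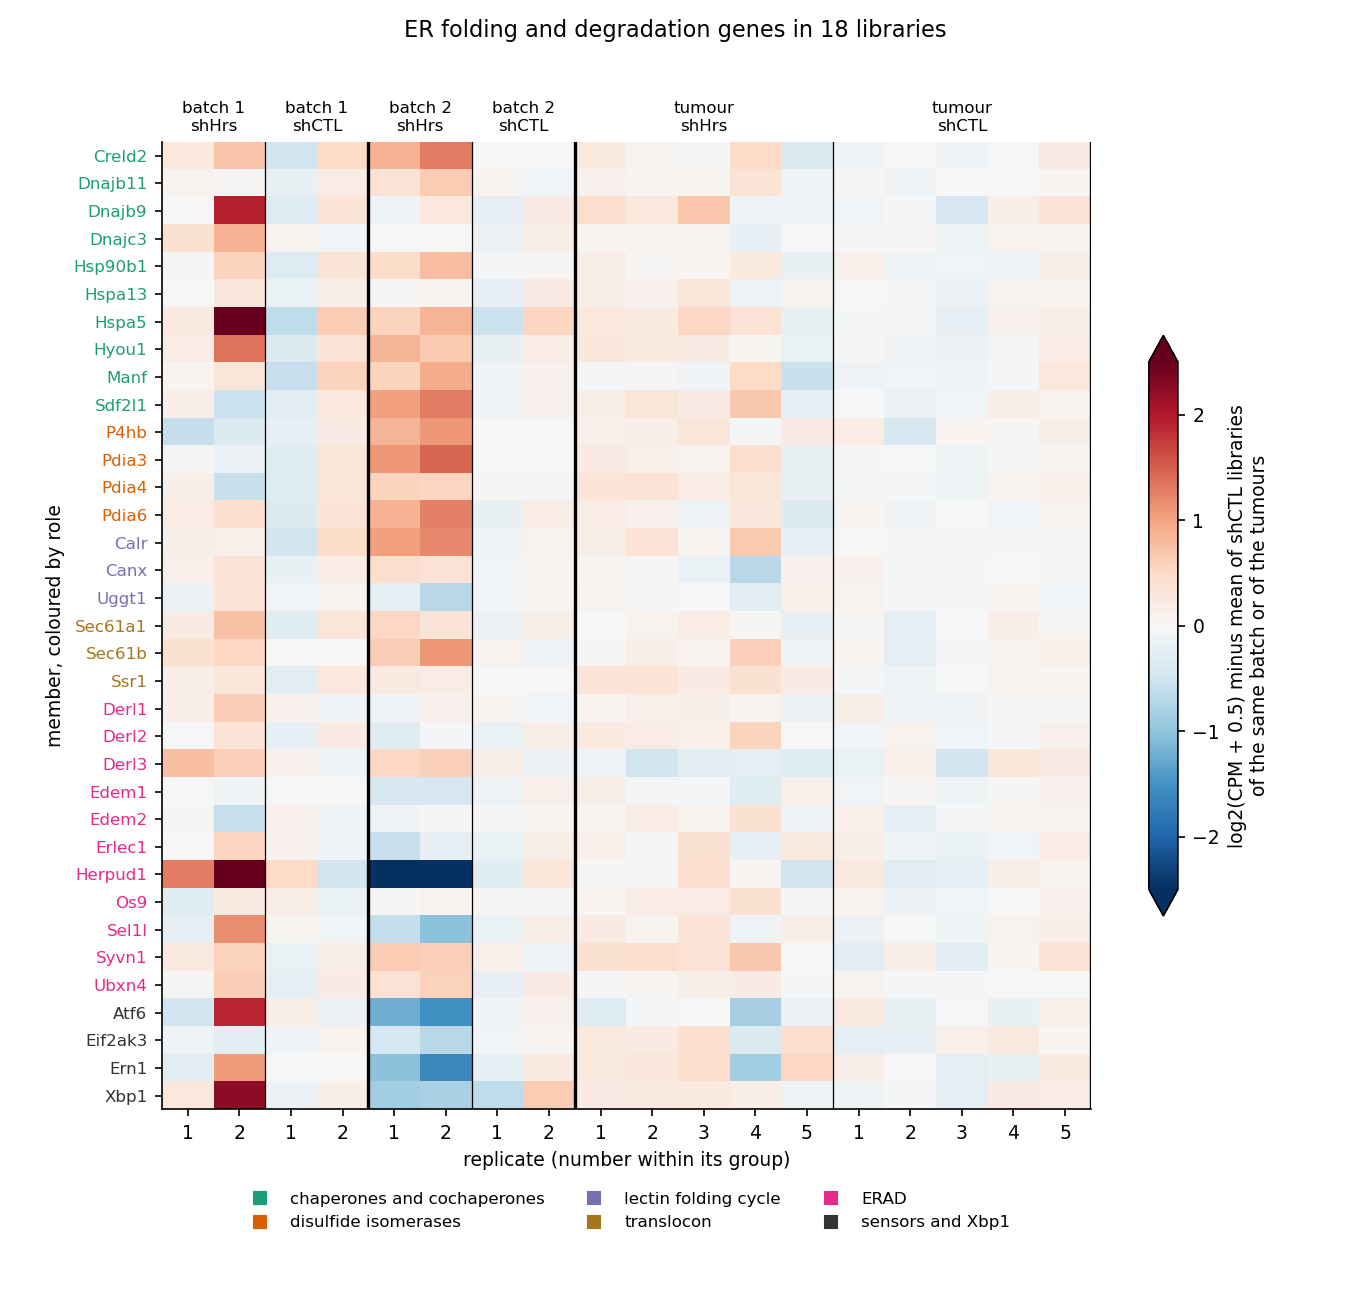
Level of each of the 35 genes in each of the 18 libraries as a colour, on the log2 scale and relative to the gene's mean over shCTL libraries of the same batch or of the tumours; libraries run across with shHrs left of shCTL, genes run down by role. The column of batch 1 shHrs replicate 2 holds strong increases, among them those of Herpud1 and Hspa5, and in both batch 2 shHrs libraries Herpud1 has the strongest decrease.

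In batch 2, 2 of the 35 genes passed the test, in opposite directions. Herpud1, an ER membrane protein that assembles the ERAD ubiquitin ligase complex, was lower with shHrs, and Pdia3, a disulfide isomerase that works with the lectins calnexin and calreticulin and in the loading of MHC class I, was higher. Thus 1 gene rose, against a background of 1.6% of the 12897 genes tested, and 1 fell, against 2.43%. Herpud1 (chromosome 8, 94386438 to 94395377, mm10) had 18.6 and 16.9 CPM in shHrs cultures, against 108 and 166 CPM in shCTL cultures. The 2 shHrs libraries were close together and far below both shCTL libraries. The log2 fold change was -2.95 (SE 0.52, adjusted p = 0.0282 by edgeR's quasi-likelihood test with Benjamini-Hochberg adjustment over all genes). Pdia3 (chromosome 2, 121413775 to 121438687) had 663 and 850.4 CPM in shHrs cultures, against 309.6 and 312 CPM in shCTL cultures. Both shHrs libraries exceeded both shCTL libraries, which were nearly equal. Its log2 fold change was 1.28 (SE 0.27, adjusted p = 0.0444). Neither call held without any 1 of the 4 batch 2 libraries. Such a fit leaves 1 library in a group, and the loss was not particular to these 2 genes. With a library left out, log2 fold changes ran from -3.22 to -2.61 for Herpud1 and from 1.13 to 1.45 for Pdia3. With the 4 libraries of batch 2 fitted alone, 11 passed higher, against 16.1% of all genes, and 5 lower, against 18%.

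By role, batch 2 shHrs cultures held more mRNA of the isomerases and most chaperones and less of the sensors, mostly short of the test. All 4 disulfide isomerases had positive log2 fold changes, with a median of 1.02. Pdia6 had 419 and 549.8 CPM in shHrs cultures, against 201 and 264 CPM in shCTL cultures, and P4hb had 717 and 846 CPM, against 399.6 and 394 CPM. Neither overlapped between the groups. In batch 2, 32.6% of all genes were higher and 37.1% lower without overlap, so this alone does not set them apart. The log2 fold changes were 1.06 (SE 0.30, adjusted p = 0.076) for Pdia6 and 0.98 (SE 0.24, adjusted p = 0.0592) for P4hb. Pdia4 had the smallest of the 4, at 0.55 (SE 0.30). Of the 10 chaperones and cochaperones, 9 had positive values, with a median of 0.62. Sdf2l1, a partner of the J proteins that keeps substrates soluble, had 41.8 and 50.8 CPM in shHrs cultures, against 18.7 and 21.9 CPM in shCTL cultures. Creld2, a small ER-stress protein, had 78.3 and 106 CPM, against 42.1 and 43.1 CPM. Neither gene overlapped between the groups, against 32.6% of all genes higher without overlap. The log2 fold changes were 1.19 (SE 0.31, adjusted p = 0.0656) for Sdf2l1 and 1.11 (SE 0.35, adjusted p = 0.0942) for Creld2. Hspa5, the Hsp70 of the ER also called BiP, had 1189 and 1432 CPM in shHrs cultures, against 551 and 1156 CPM in shCTL cultures. The 2 shCTL libraries lay further apart than the upper one lay from the lower shHrs library, and the log2 fold change was 0.62 (SE 0.73, adjusted p = 0.601). Hsp90b1, the Hsp90 of the ER, had 1068 and 1336 CPM with shHrs, against 758 and 799 CPM with shCTL (0.63, SE 0.30, adjusted p = 0.215). Dnajb9, a J protein that directs BiP, had 14.1 and 17.97 CPM with shHrs, against 12.8 and 17.4 CPM with shCTL, and these overlapped. Hyou1, the large Hsp70-like exchange factor of BiP, had 0.75 (SE 0.40) and Manf, a secreted partner of BiP, 0.76 (SE 0.36), while the J proteins Dnajb11 and Dnajc3 had 0.50 (SE 0.23) and -0.0049 (SE 0.24) and Hspa13, a short Hsp70, 0.03 (SE 0.24).

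In the lectin cycle, Calr, the soluble calreticulin, had 881 and 997.5 CPM in batch 2 shHrs cultures, against 407 and 459 CPM in shCTL cultures. The groups did not overlap, against 32.6% of all genes higher without overlap. The log2 fold change was 1.12 (SE 0.31, adjusted p = 0.0732). Canx, the membrane calnexin, had 0.40 (SE 0.23) and Uggt1, the enzyme that returns unfolded glycoproteins to the lectins, had -0.46 (SE 0.26). In the translocon, the channel subunit genes Sec61b and Sec61a1 had 0.87 (SE 0.23, adjusted p = 0.069) and 0.41 (SE 0.29), and Ssr1, of the TRAP complex beside the channel, had 0.21 (SE 0.24). The 11 ERAD genes were split, with 5 positive, 6 negative and a median of -0.06. Syvn1, the ubiquitin ligase also called Hrd1, had 78.3 and 75.8 CPM with shHrs, against 54.6 and 46.2 CPM with shCTL, a log2 fold change of 0.61 (SE 0.23, adjusted p = 0.136). Its cofactor Sel1l had 143 and 105 CPM with shHrs, against 193 and 239.6 CPM with shCTL, at -0.81 (SE 0.41, adjusted p = 0.238). The ligase and its cofactor thus had opposite signs, and neither passed. The derlins Derl1 and Derl2, the glycan-trimming Edem1 and Edem2, the lectins Os9 and Erlec1 that read the trimmed glycans, and Ubxn4, which recruits the ATPase Vcp, lay between -0.41 (Edem1) and 0.46 (Ubxn4).

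The 4 genes of sensors and Xbp1 all had negative log2 fold changes in batch 2, with a median of -1.15, and none passed. Atf6 had 80.3 and 64.8 CPM in shHrs cultures, against 174 and 202 CPM in shCTL cultures, and Ern1 had 25.3 and 16.6 CPM, against 44.6 and 60.3 CPM. Eif2ak3 had 42.4 and 35.5 CPM with shHrs, against 54.7 and 60.3 CPM with shCTL. None of the 3 overlapped between the groups, against 37.1% of all genes lower without overlap. The log2 fold changes were -1.38 (SE 0.61, adjusted p = 0.187) for Atf6, -1.33 (SE 0.43, adjusted p = 0.0968) for Ern1 and -0.56 (SE 0.22, adjusted p = 0.137) for Eif2ak3. Xbp1 had 51.1 and 53.2 CPM with shHrs, against 60.7 and 145 CPM with shCTL, so the shCTL libraries differed from each other more than the lower one did from shHrs. These sensor genes have long exons in all, 9231 bases for Atf6, 8173 for Ern1 and 6026 for Eif2ak3. In batch 2 the median log2 fold change of all genes also moved with exon length, at 0.19 for 1 to 2 kb, -0.13 for 5 to 8 kb and -0.34 beyond 8 kb. The 2 shHrs libraries differed by length too. The median of replicate 2 minus replicate 1 was 0.33 for 1 to 2 kb and -0.35 beyond 8 kb, on the log2 scale. For the 2 shCTL libraries these medians were -0.0074 and 0.041. With length modelled in each library, an alternative chosen after seeing the data, Atf6 had -1.11, Ern1 -1.11 and Eif2ak3 -0.44, while Herpud1 (2333 bases, -3.06, adjusted p = 0.0292) and Pdia3 (3139 bases, 1.21, adjusted p = 0.0436) still passed.

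**Figure D2:**
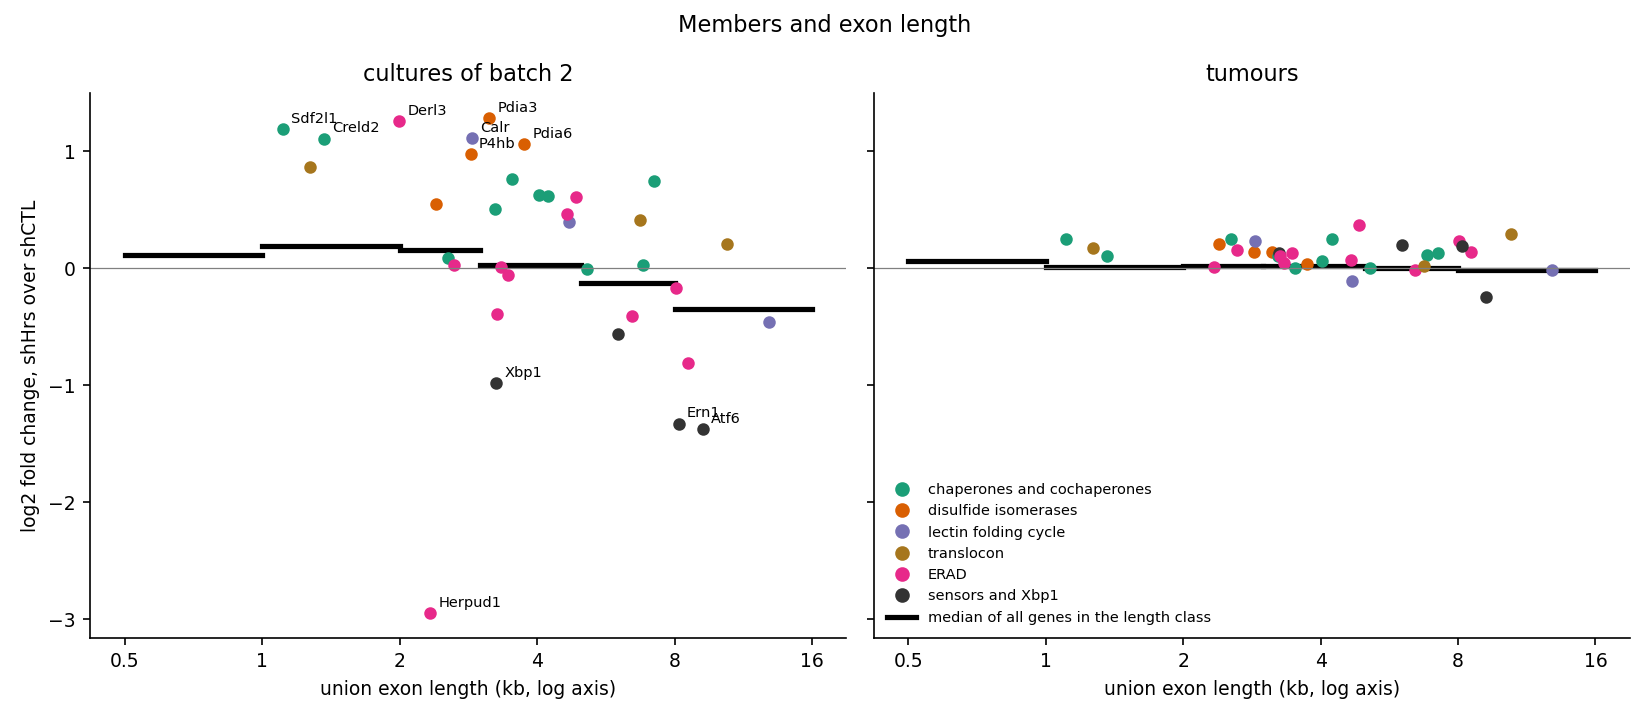
Median log2 fold change (shHrs over shCTL, vertical axis) of all genes tested by class of total exon length in kilobases (horizontal axis) in batch 2 and tumours, with those of the 35 genes that were tested as points. The batch 2 medians descend to -0.34 beyond 8 kb, while those of tumours stay between 0.07 and -0.02, and Herpud1 lies far below the line of its class in batch 2.

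Over the 35 genes, batch 2 gave 23 positive log2 fold changes, against 47.3% of all genes tested, 12 negative ones, against 52.7%, and a median of 0.40, against -0.05 for all genes. Without batch 2 shCTL replicate 1 the median was 0.20, against -0.04 for all genes, with 21 positive. In 19 of the 35 both shHrs libraries exceeded both shCTL libraries, against 32.6% of all genes, and in 9 both lay below, against 37.1%. The 9 were Atf6, Edem1, Eif2ak3, Erlec1, Ern1, Herpud1, Sel1l, Uggt1 and Xbp1. They hold all 4 genes of sensors and Xbp1 and no chaperone gene. At an unadjusted p under 0.05 there were 8 higher and 3 lower, against 13% and 14.9% of all genes. DESeq2 called 7 higher (Calr, Creld2, P4hb, Pdia3, Pdia6, Sdf2l1 and Sec61b), against 7.51%, and 2 lower (Ern1 and Herpud1), against 7.91%.

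In batch 1, edgeR called none of the 35 genes, against 0% of all 12897 genes in either direction. At an unadjusted p under 0.05 there were 4 higher (Dnajc3, Herpud1, Hspa5 and Xbp1), against 3.43% of all genes, and 0 lower, against 5.95%. DESeq2 called 1 higher, Herpud1, against 0.308% of all genes, and 0 lower, against 1.43%, and limma voom called 0. Herpud1 had 141 and 372 CPM in shHrs cultures, against 80.0 and 41.5 CPM in shCTL cultures. Both shHrs libraries lay above both shCTL libraries, the reverse of batch 2, with a log2 fold change of 2.08 (SE 0.50, adjusted p = 0.284). Xbp1 had 74.2 and 291 CPM with shHrs, against 55.3 and 68.1 CPM with shCTL. It did not overlap either, though replicate 1 was only just above the shCTL libraries. In batch 1, 15.5% of all genes were higher without overlap. The log2 fold change of Xbp1 was 1.57 (SE 0.61, adjusted p = 0.513). Hspa5 had 825 and 4380 CPM with shHrs, against 449 and 1086 CPM with shCTL. Replicate 1 lay between the shCTL libraries and replicate 2 was the highest of all 8 cultures, so the log2 fold change of 1.76 (SE 0.74, adjusted p = 0.524) rests on that library.

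The same library set the values of other members in batch 1. Atf6 had 72.9 and 384 CPM in shHrs cultures, against 114 and 92.1 CPM in shCTL cultures. Ern1 had 42.9 and 109.9 CPM with shHrs, against 52.9 and 51.9 CPM with shCTL, and Dnajb9 had 14.1 and 55.9 CPM, against 11.2 and 17.9 CPM. In each of the 3, replicate 1 was below or within the range of shCTL and replicate 2 far above it. Eif2ak3, the third sensor, did not follow, with 74.7 and 65.7 CPM with shHrs, against 75.7 and 84.9 CPM with shCTL. Some other folding factors did not have replicate 2 far above shCTL. Hsp90b1 had 1017 and 1493 CPM with shHrs, against 806 and 1245 CPM with shCTL. Its replicate 2 lay above the shCTL range, but by less. Calr had 844 and 827 CPM, against 553 and 1037 CPM, and Sdf2l1 had 63.9 and 39.1 CPM, against 47.8 and 68.3 CPM. Hsp90b1, Calr and Sdf2l1 each overlapped between the groups. So did Pdia3, with 536 and 474 CPM with shHrs, against 423 and 648 CPM with shCTL. P4hb, the best known disulfide isomerase of the ER, was lower in both shHrs libraries, at 604 and 714 CPM, against 794 and 1054 CPM with shCTL, again the reverse of batch 2.

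Of the 35 genes, 27 had positive log2 fold changes in batch 1, against 50.6% of all genes, and 8 negative ones, against 49.4%, with a median of 0.29, against 0.01 for all genes. In 7 both shHrs libraries exceeded both shCTL libraries, against 15.5% of all genes, and in 2 (Eif2ak3 and P4hb) both lay below, against 16.6%. Without shHrs replicate 2 the median was 0.07, 22 were positive and edgeR called 0. The median was 0.06 without shCTL replicate 1, 0.52 without shHrs replicate 1 and 0.53 without shCTL replicate 2. Without shHrs replicate 1 edgeR called 7 higher (Atf6, Dnajb9, Herpud1, Hspa5, Hyou1, Sel1l and Xbp1), against 4.61% of all genes higher. Those calls describe replicate 2 alone, whose spread is there assumed to be that of the other groups. With no filter on low counts edgeR called 3 higher (Herpud1, Hspa5 and Xbp1), against 0.875% of all genes.

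**Figure D3:**
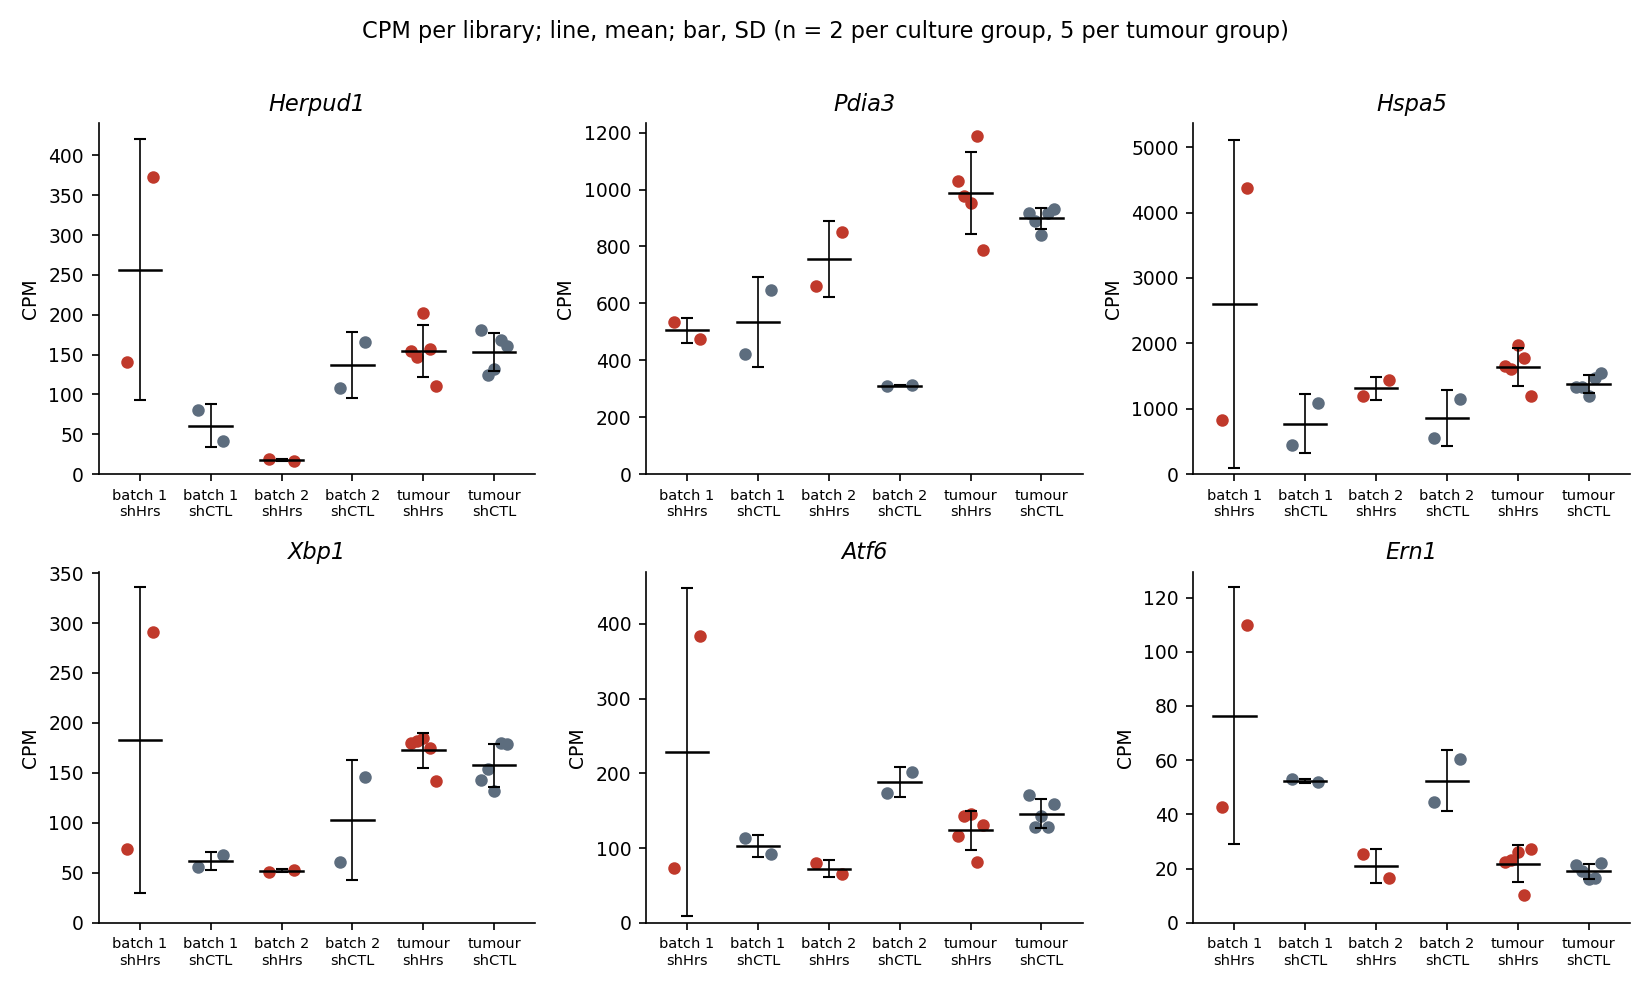
CPM of single genes by library, shHrs left of shCTL within each culture batch and in tumours, with a point for each library, a line at each mean and a bar for the SD. Herpud1 lies above shCTL in batch 1 and below it in batch 2, while its shHrs and shCTL tumours overlap.

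Taking both batches in 1 fit with batch as a term, edgeR called 0 of the 35 genes, against 0% of the 12617 genes tested in either direction. Without adjustment, p was under 0.05 for 6 that were higher, against 5.73% of all genes, and 1 that was lower, against 7.59%. DESeq2 called 1 higher, Sec61b, against 0.872% of all genes, and 0 lower, against 1.51%, and limma voom called 0. Sec61b had 91.9 and 101 CPM in batch 1 shHrs cultures, against 69.8 and 70.3 CPM in batch 1 shCTL cultures. In batch 2 it had 92.7 and 128 CPM with shHrs, against 64.5 and 56.3 CPM with shCTL. All 4 shHrs libraries exceeded all 4 shCTL libraries, with a log2 fold change of 0.67 (SE 0.18, adjusted p = 0.301 by edgeR). Sec61b is short, with 1271 bases of exons. Syvn1 had 66.3 and 83.7 CPM in batch 1 shHrs cultures, against 49.6 and 62.5 CPM in batch 1 shCTL cultures, and was higher within both batches, as given for batch 2 (0.52, SE 0.17, adjusted p = 0.332).

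Besides Sec61b and Syvn1, 1 more gene was higher in both batches without overlap, Derl3, a derlin of the retrotranslocation channel that the line scarcely expresses. It had 13 and 12 counts in batch 1 shHrs cultures, against 7 and 3 counts in shCTL cultures, and 12 and 17 counts in batch 2 shHrs cultures, against 7 and 4 counts in shCTL cultures. At so few counts the order of libraries is weakly determined. These 3 of 35 compare with 4.75% of all genes. Eif2ak3 was the only one of the 35 lower in both batches without overlap, against 5.49% of all genes, and had a log2 fold change of -0.38 (SE 0.17, adjusted p = 0.374). The median of the 35 over both batches was 0.29, against -0.02 for all genes, and 24 were positive, against 48.3% of all genes, and 11 negative, against 51.7%.

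Opposite directions in the batches, without overlap in either, were seen for P4hb (lower in batch 1, higher in batch 2), against 5.91% of all genes, and for Herpud1 and Xbp1 (higher in batch 1, lower in batch 2), against 5.7%. The difference of the knockdown effects, batch 2 minus batch 1, was tested as an interaction, and edgeR called 0 of the 35, against 0.132% of all genes higher and 0.0233% lower. Herpud1 came closest, with a difference of -5.02 on the log2 scale (SE 0.71, adjusted p = 0.0502). P4hb had a difference of 1.47 (SE 0.34, adjusted p = 0.0939), Xbp1 -2.55 (SE 0.85, adjusted p = 0.159), Atf6 -2.53 (SE 0.86, adjusted p = 0.166) and Ern1 -1.87 (SE 0.60, adjusted p = 0.152). Before adjustment, p was under 0.05 for 4 differences above 0 (Calr, P4hb, Pdia3 and Sdf2l1), against 9.73% of all genes, and 5 below 0 (Atf6, Ern1, Herpud1, Sel1l and Xbp1), against 10.6%. DESeq2 called 2 above 0 (P4hb and Pdia3), against 4.03% of all genes, and 4 below 0 (Atf6, Ern1, Herpud1 and Xbp1), against 3.87%, and limma voom called 0. Without batch 1 shHrs replicate 1 edgeR called 3 above 0, against 7.84% of all genes, and 6 below 0, against 7%. Without replicate 2 it called P4hb above 0, against 2.39%, and Herpud1 below 0, against 2.42%, and without batch 1 shCTL replicate 1 it called Herpud1, against 0.356% below 0. The median difference of the 35 was -0.05 and its sign turned with the libraries used. Leaving out batch 1 shHrs replicate 2 gave 0.24, whereas leaving out shCTL replicate 2 of that batch gave -0.28.

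**Figure D4:**
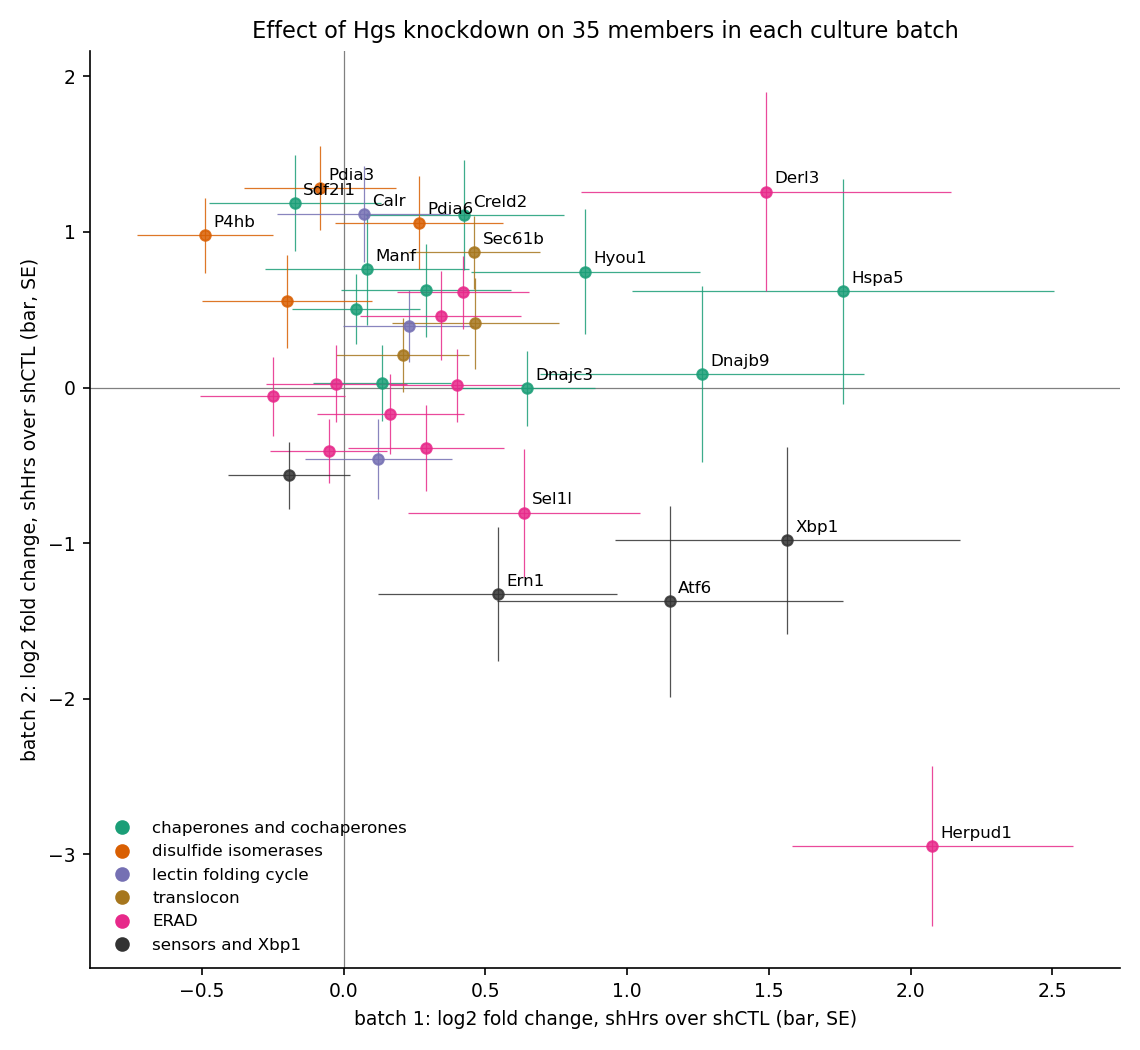
Log2 fold change of shHrs over shCTL in batch 1 (horizontal axis) and batch 2 (vertical axis) for the 35 genes, coloured by role, with bars of 1 SE. Herpud1, Xbp1, Atf6 and Ern1 lie at the lower right, higher in batch 1 and lower in batch 2, and the disulfide isomerases lie above 0 in batch 2 and near 0 or below in batch 1.

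In tumours, 34 of the 35 genes were tested, and edgeR called 0 of them, against 0.235% of the 13215 genes tested higher and 0.31% lower. At an unadjusted p under 0.05 there were 3 higher (Derl2, Ssr1 and Syvn1), against 6.96% of all genes, and 0 lower, against 7.17%. DESeq2 called 1 higher, Ssr1, against 2.32% of all genes, and 0 lower, against 2.18%, and limma voom called 0. Derl3 was too low to test, with 1 to 6 counts in shHrs tumours and 1 to 8 counts in shCTL tumours. Ssr1 (chromosome 13, 37966605 to 37994217) had 379, 383, 347, 396 and 348 CPM in shHrs tumours, against 296, 278, 302, 322 and 317 CPM in shCTL tumours. All 5 shHrs tumours exceeded all 5 shCTL tumours, but only by a little at the nearest pair. Its log2 fold change was 0.29 (SE 0.07, adjusted p = 0.0996). It was the only 1 of the 34 whose groups did not overlap, against 1.91% of all genes higher and 2.61% lower. Syvn1 had 103, 107, 102, 126 and 80.0 CPM in shHrs tumours, against 65.2, 87.6, 65.6, 82.3 and 101 CPM in shCTL tumours. The ranges overlapped through shHrs replicate 5 and shCTL replicate 5, and the log2 fold change was 0.37 (SE 0.14, adjusted p = 0.267).

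The genes called in batch 2 lay closer together in tumours. Herpud1 had 155, 147, 203, 157 and 110 CPM in shHrs tumours, against 181, 124, 132, 168 and 161 CPM in shCTL tumours, so the groups lay on top of each other (0.01, SE 0.15). Pdia3 had 1029, 979, 954, 1189 and 787 CPM with shHrs, against 916, 889, 839, 917.5 and 931 CPM with shCTL, with 4 shHrs tumours above the shCTL range and 1 below it (0.14, SE 0.10). Hspa5 had 1650, 1604, 1973, 1771 and 1200 CPM with shHrs, against 1338, 1337, 1193, 1466 and 1541 CPM with shCTL. Here too 4 of the 5 shHrs tumours exceeded every shCTL tumour and replicate 5 did not, with a log2 fold change of 0.25 (SE 0.13, adjusted p = 0.408). Xbp1 had 179.5, 182, 185, 175 and 142 CPM with shHrs, against 143, 154, 132, 180.3 and 179 CPM with shCTL (0.13, SE 0.11). Its ranges overlapped almost wholly, with shHrs replicate 5 below the other shHrs tumours.

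The chaperones and lectins overlapped as well. Hsp90b1 had 2130, 1932, 1943, 2225 and 1671 CPM in shHrs tumours, against 2075, 1739, 1806, 1763 and 2096 CPM in shCTL tumours, and Calr had 1556, 1775, 1459, 2205 and 1220 CPM, against 1396, 1376, 1426, 1429 and 1376 CPM. For Calr the shHrs tumours spread far more widely than the shCTL tumours, with replicate 4 at the top and replicate 5 at the bottom. Dnajb9 had 62.2, 55.2, 74.3, 42.3 and 42.1 CPM with shHrs, against 43.5, 45.1, 34.2, 51.4 and 57.9 CPM with shCTL. Sdf2l1 had 92.2, 102, 95.5, 133 and 69.9 CPM with shHrs, against 81.6, 73.9, 78.9, 91.9 and 86.7 CPM with shCTL, so that 4 shHrs tumours exceeded every shCTL tumour and replicate 5 lay below all of them.

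The sensors overlapped too. Atf6 had 117, 142, 145, 81.6 and 132 CPM in shHrs tumours, against 172, 128, 144, 128 and 159 CPM in shCTL tumours. Ern1 had 22.3, 23.2, 25.9, 10.1 and 27.3 CPM with shHrs, against 21.2, 19.1, 16.2, 16.5 and 22.2 CPM with shCTL. Eif2ak3 had 79.2, 77.6, 88.5, 52.0 and 89.7 CPM with shHrs, against 57.5, 57.8, 73.3, 79.9 and 69.6 CPM with shCTL. For Ern1 4 of the 5 shHrs tumours stood above every shCTL tumour, and replicate 4 below all of them.

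Of the 34 genes, 29 had positive log2 fold changes in tumours, against 51.5% of all genes, and 5 negative ones, against 48.5%, with a median of 0.13, against 0.01 for all genes and values from -0.24 (Atf6) to 0.37 (Syvn1). Without shHrs replicate 4 the median was 0.08. With all 10 tumours it was 0.11 for chaperones, 0.14 for disulfide isomerases, 0.12 for ERAD, 0.16 for sensors and Xbp1 and 0.17 for the translocon genes. The sensors Atf6, Ern1 and Eif2ak3 had -0.24 (SE 0.15), 0.20 (SE 0.22) and 0.20 (SE 0.15). Replicate 4 of shHrs was the lowest of all 10 tumours for each. Relative to the rest of its group, the median of all genes in that tumour was -0.28 on the log2 scale beyond 8 kb of exons and 0.50 under 1 kb. It also had the highest leukocyte marker sum of the 10 tumours, 971 CPM. In the other shHrs tumours that sum was 202 to 338 CPM, against 38.9 to 547 CPM in shCTL tumours. Of the 14 leukocyte and myeloid markers tested in tumours, 13 had positive log2 fold changes, with a median of 0.60, and 0 were called, with 0 at an unadjusted p under 0.05. Plasma and B cell markers, whose cells are rich in ER proteins, summed to 4.41 to 13.9 CPM in shHrs tumours, against 4.23 to 11.3 CPM in shCTL tumours. That sum covers 10 of the 14 markers. The immunoglobulin genes Igkc, Ighm, Iglc2 and Ighg1 were not among the symbols counted, so it cannot show how much RNA such cells gave. Of those counted, Mzb1, a cochaperone of antibody-secreting cells, had -3.08 in the batch 2 cultures (adjusted p = 0.101 by edgeR). Jchain was too low to test there. Levels in those cultures were very low, with a sum of the plasma and B cell markers of 0.475 to 0.665 CPM with shHrs, against 2.61 to 3.49 CPM with shCTL. Fibroblast markers, from cells that secrete collagen, summed to 263 to 1920 CPM in shHrs tumours, against 290 to 3180 CPM in shCTL tumours. The part of these cells and of gene length in the tumour values was not tested beyond the fit with length modelled, in which Ssr1 had 0.33 (adjusted p = 0.128).

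**Figure D5:**
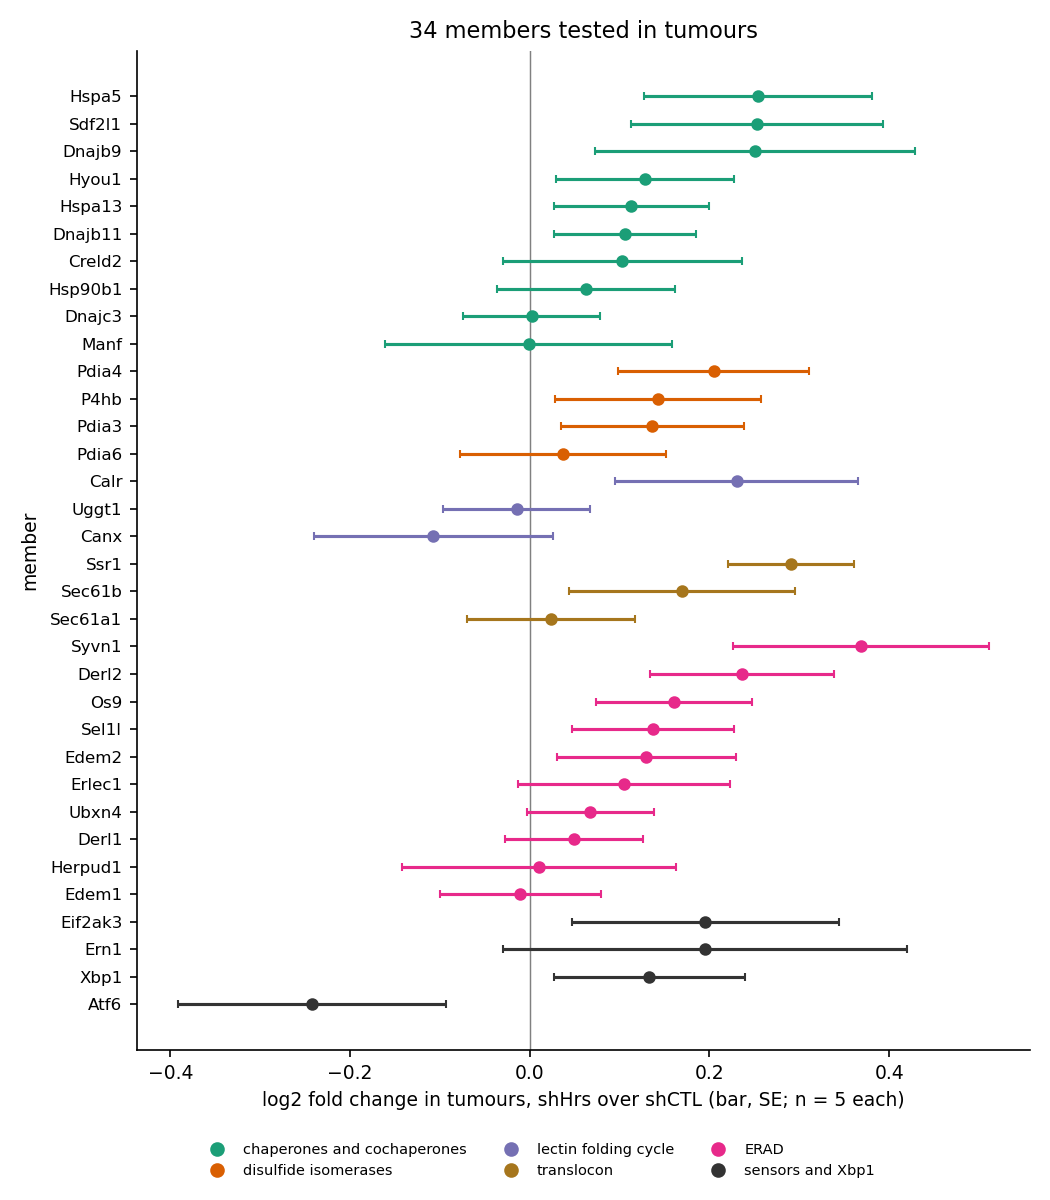
Log2 fold change of shHrs over shCTL in tumours for the 34 genes tested, by role, with bars of 1 SE (horizontal axis, log2). Most points lie slightly right of 0, with Syvn1 furthest right at 0.37 and Atf6 furthest left at -0.24.

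The knockdown effect in tumours minus the mean effect in the culture batches came from a model of the 18 libraries together, and edgeR called 0 of the 35, against 2.12% of 14458 genes higher and 1.49% lower. Before adjustment, p was under 0.05 for 1 above 0 (Eif2ak3), against 10.3% of all genes, and 8 below 0 (Canx, Creld2, Derl3, Hyou1, Pdia3, Pdia6, Sec61a1 and Sec61b), against 10.7%. DESeq2 called 0, against 5.67% of all genes above 0 and 5.37% below 0, and limma voom 0. For Pdia6 the difference was -0.65 (SE 0.22, adjusted p = 0.099), for Hspa5 -0.97 (SE 0.51, adjusted p = 0.297) and for Eif2ak3 0.55 (SE 0.21, adjusted p = 0.147). Of the 35 differences, 13 were above 0, against 51.2% of all genes, and 22 below 0, against 48.8%, with a median of -0.19, against 0.01 for all genes. Leaving out batch 1 shHrs replicate 2 gave a median of -0.08, and leaving out replicate 1 of that group gave -0.31. Leaving out a library moved the count of calls to 4 without batch 1 shHrs replicate 1 (Dnajc3, Hspa5, Hyou1 and Pdia6, all below 0, against 6.38% of all genes below 0) and 3 without batch 1 shCTL replicate 2 (Creld2, Pdia3 and Pdia6, all below 0, against 4.7%). Without tumour shHrs replicate 4 it called Eif2ak3 above 0, against 2.43%, and Sec61b below 0, against 1.92%.

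Levels per kilobase of exon, with all 18 libraries scaled together, put several folding factors far above the sensors. In the 4 shCTL cultures the highest means were P4hb at 226 CPM per kb, Hsp90b1 at 219.7, Calr at 209, Hspa5 at 188 and Pdia3 at 132, while the sensors Atf6, Eif2ak3 and Ern1 had 15.5, 11.2 and 6.31 CPM per kb. The chaperones Hspa13, at 8.32, and Dnajb9, at 5.72, were as low as the sensors, and Derl3 was lowest at 0.116 CPM per kb. The same 5 genes led in shCTL tumours, at 502, 472, 488, 326 and 287 CPM per kb. For 23 of the 35 genes every shCTL tumour lay above every shCTL culture and for 2 (Ern1 and Uggt1) every one lay below. The same count was not made over all genes, so it does not set the ER genes apart from other genes. These levels were not tested, since growth in a mouse, the presence of host cells and any difference in sequencing run cannot be told apart.

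Genes with an ERSE or ERSE-II in the promoter, 11 of the 28 with a promoter, had a median log2 fold change of 0.42 in batch 1, all 11 positive. The 17 with neither element had 0.12 with 9 positive, and the 7 with no promoter to search had 0.40, all 7 positive. In batch 2 the medians were 0.62 with 9 of 11 positive and 0.03 with 9 of 17 positive. For those with no promoter the batch 2 median was 0.03, with 5 of 7 positive. Herpud1, at -2.95, was the lowest of the 11 in batch 2, and Dnajc3 was the other negative one. In tumours the order of the first 2 sets turned round, at 0.08 for the 10 tested genes with an element and 0.16 for the 17 with neither. The 7 with no promoter had 0.05. These are descriptions of genes already chosen as ER genes, and the differences between the sets were not tested.

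Among other genes of the pathway, those of the PERK and ATF4 branch gave the most calls in batch 2. Of the 16, all tested, 3 fell, against 2.43% of all genes. Negative log2 fold changes were seen for 14, against 52.7%, with a median of -1.69, against -0.05 for all genes. Atf4, the transcription factor translated when PERK is active, had 161 and 222 CPM in shHrs cultures, against 606 and 600.1 CPM in shCTL cultures (log2 fold change -1.66, SE 0.37, adjusted p = 0.0498). Its target Chac1, which degrades glutathione, had 3.04 and 2.81 CPM, against 103 and 207 CPM (-5.73, SE 0.91, adjusted p = 0.0243). Trib3, a pseudokinase that feeds back on ATF4, had 17.0 and 25.7 CPM, against 523 and 734 CPM (-4.88, SE 0.98, adjusted p = 0.0382). The shCTL libraries of batch 2 thus held far more of these mRNAs than the shHrs libraries. Ddit3, which encodes the stress factor CHOP, had 44.1 and 63.7 CPM with shHrs, against 385 and 511 CPM with shCTL (-3.06, adjusted p = 0.0661). Ppp1r15a, the phosphatase subunit that reverses the action of PERK, had -2.72 (adjusted p = 0.162), and Asns, the asparagine synthetase, -0.94 (adjusted p = 0.217).

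In batch 1 all 16 had positive log2 fold changes, against 50.6% of all genes, with a median of 1.41, against 0.01. Of these, edgeR called 0, with 9 higher at an unadjusted p under 0.05, against 3.43% of all genes. Chac1 had 118 and 439 CPM in shHrs cultures, against 85.7 and 20.7 CPM in shCTL cultures (2.39, adjusted p = 0.451), and Ddit3 had 141 and 736.5 CPM, against 226 and 68.2 CPM (1.58, adjusted p = 0.562). Replicate 2 was again far above replicate 1. For Chac1 the batch 2 minus batch 1 difference was -8.11 (SE 1.18, adjusted p = 0.0508), and for Ddit3 -4.63 (SE 1.09, adjusted p = 0.0958). In tumours the median of the branch was -0.14, and 12 of 16 were negative, against 48.5% of all genes. There 0 were called, with 1 lower at an unadjusted p under 0.05, against 7.17% of all genes.

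The remaining lists of the pathway gave few calls. Over all genes, edgeR called 0% in batch 1, 1.6% higher and 2.43% lower in batch 2, and 0.235% higher and 0.31% lower in tumours. Of the 18 tested genes for the activation of ATF6 and XBP1, Nfya, a subunit of the factor that binds the CCAAT box of ERSE, fell in batch 2, with 63.5 and 48.1 CPM in shHrs cultures, against 132 and 109 CPM in shCTL cultures (-1.12, SE 0.25, adjusted p = 0.049). None of the 33 tested other ERAD genes was called in either batch or in tumours. Positive values were held by 26 in batch 1, against 50.6% of all genes, and 26 in batch 2, against 47.3%. Their medians were 0.20 and 0.28. At an unadjusted p under 0.05 there were 9 higher, against 13% of all genes, and 1 lower, against 14.9%, in batch 2. In batch 1 there were 1 higher and 1 lower at that p, against 3.43% and 5.95% of all genes, and in tumours 4 higher and 0 lower, against 6.96% and 7.17%. Vcp, the ATPase that pulls ERAD substrates from the membrane, had 1.28 in batch 2 (adjusted p = 0.0539). Of the 37 other foldases, 0 were called in either batch, with medians of -0.09 and 0.01. At an unadjusted p under 0.05 there were 0 higher and 2 lower in batch 1, against 3.43% and 5.95% of all genes. In batch 2 there were 2 higher and 3 lower at that p, against 13% and 14.9%. Ero1l, the oxidase that recharges the isomerases, had -1.22 in batch 2 (adjusted p = 0.349). In tumours 1 of the 37 fell, Fkbp10, a collagen foldase (33.5 to 52.6 CPM in shHrs tumours, against 56.7 to 83.0 CPM in shCTL tumours; -0.69, SE 0.13, adjusted p = 0.0479). Of the 30 genes of KDEL retrieval and coats, Sar1b, the GTPase that starts the COPII coat, fell in tumours, with 63.5, 68.7, 68.5, 70.3 and 70.2 CPM with shHrs, against 101, 87.1, 95.7, 106 and 86.2 CPM with shCTL (-0.48, SE 0.07, adjusted p = 0.0148). All 5 shHrs tumours lay below all 5 shCTL tumours. Of the 36 tested genes for translocation and glycosylation 0 were called in either batch or tumours, with medians of 0.14, 0.18 and 0.06. Without adjustment, p was under 0.05 for 0 in batch 1, for 4 higher and 1 lower in batch 2, against 13% and 14.9% of all genes, and for 5 higher and 1 lower in tumours, against 6.96% and 7.17%. In tumours minus cultures the lists held 4 calls. Txndc12 was above 0, against 2.12% of all genes, and Fkbp10, Vcp and Ubxn6 were below 0, against 1.49%.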

How the data were processed

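The deposited table holds raw counts per gene symbol from the authors, as whole numbers without normalization, for 18 libraries; all columns were used. Per the submitters' processing notes, STAR 2.4.0h2, DESeq and the build mm10 were used. How reads were counted, with which annotation and whether by strand, is not given in the sources used here; overlapping genes can therefore share reads.

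From these counts, edgeR 4.0.16 in R 4.3.3 (TMM scaling, filterByExpr with a minimum count of 10) fitted all tested genes by its quasi-likelihood test (two-sided); p-values were adjusted over all tested genes after Benjamini and Hochberg and called under 0.05. Cultures were fitted with batch as a term and as 4 group means, tumours alone, and tumours minus cultures as 6 group means. CPM use TMM within cultures and within tumours. DESeq2 1.42.0, limma 3.58.1 (voom), RLE scaling, no filter, a replicate block, each library left out and a length offset were alternatives. Replicates differed by 14.5 to 220 chi-square units per degree of freedom, more than sampling noise. Total counts limit the precision of low genes.

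The 35 genes and the other lists were chosen with earlier results of these data known. Of the 35, genes that passed are named with the value in every library, as are 11 main ER genes whatever their result (Derl3 by its counts). Of the other 233 list genes, 4 stand under an older symbol and 4 are missing from the table. Of each other list, up to 4 passing genes and 10 preset genes are named. Positions and exon lengths are those of GENCODE M21. Scripts were tested on simulated data.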

Additional observations from a re-analysis of the deposited data

Results flagged for a closer look

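Within groups of 5 tumours, the gap of the highest or lowest library to its nearest neighbour was checked in 72 combinations of gene and group, of which chance alone flags about 1 in 20. It stood out in 3. Xbp1 in shHrs replicate 5 was low at 142 CPM, with the next shHrs tumour at 175 CPM. Canx in shCTL replicate 1 was high at 1350 CPM, with the next at 1250 CPM. Manf in shCTL replicate 5 was high at 267 CPM, with the next at 220 CPM.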

How the results depend on the processing

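Under the alternatives run, Hgs kept its direction in each batch, over both batches and in tumours, and Herpud1 and Pdia3 kept theirs in batch 2. The median difference between the batches changed sign in some fits with a library left out and with the length offset (0.0867). The number of the 35 genes called was 0 to 1 over both batches (1 by DESeq2, 0 in each fit with a library left out) and 0 to 7 in batch 1 (3 with no filter, 1 by DESeq2, 0 to 7 with a library left out). In batch 2, against 2 as reported, it was 10 with no filter, 9 by DESeq2, 16 with the batch fitted alone and 0 to 11 with a library left out. For batch 2 minus batch 1 it was 1 with RLE, 8 with no filter, 6 by DESeq2, 1 with the length offset and 0 to 9 with a library left out, and the median difference ran from -0.278 to 0.242. The medians of the 35 with a library left out ran from 0.257 to 0.399 over both batches, 0.0582 to 0.531 in batch 1, 0.204 to 0.429 in batch 2, 0.0808 to 0.157 in tumours and -0.305 to -0.084 for tumours minus cultures. In tumours the number called was 1 by DESeq2, and for tumours minus cultures 1 with the length offset and 0 to 4 with a library left out. Herpud1 in batch 2 ran from -3.22 to -2.61 (adjusted p 2.69e-08 to 0.317) and Pdia3 from 1.13 to 1.45 (0.000615 to 0.324). Hgs over both batches (-1.49, adjusted p = 0.0502) passed with no filter (-1.47), by DESeq2 (-1.46) and by limma voom (-1.48), and ran from -1.55 to -1.39 with a library left out. In batch 1 (-1.67, adjusted p = 0.103) it passed with no filter (-1.67) and by DESeq2 (-1.67), and ran from -1.82 to -1.53. In batch 2 (-1.30) it ran from -1.37 to -1.20 and did not pass without any 1 of that batch's libraries. The replicate block left 1 of the 35 called by edgeR in batch 2, Herpud1, with Pdia3 at an adjusted p of 0.0582. Deviations of libraries with the same number correlated at 0.175 in batch 1, 0.0247 in batch 2 and -0.596 to 0.466 in tumours. In tumours the values took both signs and gave no sign of pairing by number. With 2 libraries per group, deviations in cultures mirror each other, so these values cannot show whether the numbers pair the cultures. The length offset was chosen after the data were seen. The causes of these changes were not tested, and 2 libraries per group and batch limit the cultures.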
